A study of Mus musculus with 9 samples.

Results

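The insulin-like growth factor binding protein (Igfbp) family was followed through 6 genes, Igfbp2, Igfbp3, Igfbp4, Igfbp5, Igfbp6 and Igfbp7. They were chosen by symbol alone, and all 6 were listed in each of the 9 libraries, among the 12580 gene symbols that every library listed. Igfbp1 was listed in 4 libraries and was not followed, since a symbol that is not listed is missing and not 0. The libraries held mouse cells of the tumour microenvironment (TME) from glioblastoma patient-derived orthotopic xenografts (PDOXs), in which organoids of a patient's tumour grow in the brain of an immunodeficient nude mouse. Each library was made by Drop-seq, a droplet method that tags the 3′ end of transcripts and counts them by unique molecular identifiers (UMIs). The groups were 7 untreated PDOXs (P3, P8, P13, T16, T101, T192 and T233), 1 PDOX treated with temozolomide (P3TMZ), an alkylating drug given by oral gavage, and 1 normal brain of a nude mouse without tumour (Nu-NB). All groups shared the nude strain and the brain as tissue, and the age of the animals was not given in the sources used here. T192 and T233 came from the same patient before and after treatment. Mouse cells were separated by FACS in P8 and in Nu-NB and with a magnetic kit in the other 7 libraries, so that P8 was the single untreated PDOX purified in the same way as Nu-NB.

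Insulin-like growth factors (IGFs) are small secreted peptides that signal through the receptor tyrosine kinase Igf1r. Igfbp2 to Igfbp6 encode secreted proteins that bind IGFs with high affinity, carry them through tissue fluid and control how much reaches the receptor, while Igfbp7 encodes a related protein of low IGF affinity that is found in vascular basement membrane. In the brain, members of the family are known from endothelial cells, pericytes, astrocytes, meningeal fibroblasts and the choroid plexus, and proteases such as Pappa and Htra1 cut them and release the bound IGF.

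By GENCODE vM21 on GRCm38, Igfbp2 (chr1:72824503-72852474, plus strand) and Igfbp5 (chr1:72857932-72874884, minus strand) were 5457 bases apart, facing each other, with 0 other genes between them. Igfbp3 (chr11:7206086-7213923, minus strand), Igfbp4 (chr11:99041244-99054392, plus strand) and Igfbp6 (chr15:102144362-102149511, plus strand) had no overlapping gene in that annotation. Igfbp7 (chr5:77349240-77408041, minus strand) was overlapped on the opposite strand by Polr2b and by the antisense gene Gm34648, and whether the counting used strand was not given in the sources used here.

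The sequence before the start of a gene is shown for the 3 members detected in the endothelial-like cells of every untreated PDOX, on which the vascular results turn. They are the 250 bases upstream of the RefSeq start, from GRCm38.p6, on the strand of the gene, and capitals mark the GC box (GGGCGG) and the TATA box (TATAAA) on either strand.
Igfbp7, chr5:77408046-77408295, minus strand: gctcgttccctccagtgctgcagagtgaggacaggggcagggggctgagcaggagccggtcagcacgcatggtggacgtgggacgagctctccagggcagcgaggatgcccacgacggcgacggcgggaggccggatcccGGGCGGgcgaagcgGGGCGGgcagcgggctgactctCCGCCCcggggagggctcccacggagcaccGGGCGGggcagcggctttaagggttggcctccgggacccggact
Igfbp3, chr11:7213924-7214173, minus strand: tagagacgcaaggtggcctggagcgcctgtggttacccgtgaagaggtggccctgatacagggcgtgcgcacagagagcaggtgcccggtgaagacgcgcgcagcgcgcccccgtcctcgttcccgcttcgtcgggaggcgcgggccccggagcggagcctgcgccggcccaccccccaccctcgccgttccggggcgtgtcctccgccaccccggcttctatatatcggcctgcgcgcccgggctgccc
Igfbp4, chr11:99040994-99041243, plus strand: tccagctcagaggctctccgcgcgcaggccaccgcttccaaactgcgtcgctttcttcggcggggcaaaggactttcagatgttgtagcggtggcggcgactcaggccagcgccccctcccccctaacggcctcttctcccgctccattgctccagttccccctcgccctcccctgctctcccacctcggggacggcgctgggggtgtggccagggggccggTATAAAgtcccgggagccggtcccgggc
The Igfbp7 sequence held 4 GC boxes and 26 CpG pairs, the Igfbp3 sequence no GC box and 32 CpG pairs, and the Igfbp4 sequence 1 TATA box and 22 CpG pairs. Among 32851 RefSeq promoters of the same length, 32.7% held a GC box, 12.4% held a TATA box, and the median number of CpG pairs was 6. The sequences and motifs were chosen after the levels of the members had been seen, and a match describes letters in the sequence, not a bound site.

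The 9 libraries held 1294068 (P3) to 8410580 (P13) UMIs. After filtering, 722 (P3TMZ) to 2770 (P13) cells per library remained, 14622 in all, with a median of 521 (T101) to 1303 (P13) UMIs per cell. The same barcode stood in 2 or more libraries for 60 of 33913 distinct barcodes, and for 9 of 14613 among the kept cells. Cells were clustered without the Igfbp and IGF system genes and named from marker lists, and UMIs were summed per sample and class. Clusters that held markers of several classes (0.507% of the kept cells in Nu-NB to 13.5% in P13) or of none (2.97% in P8 to 45.1% in T101) were left out of the classes. Levels are given as CPM, the UMIs of a gene per 1000000 UMIs of such a sum, for sums of at least 10 cells, with exact 95% Poisson intervals that cover counting error only. Endothelial-like sums held 12702 to 25293 CPM of the 10 endothelial markers, and mural-like sums held 14189 to 29450 CPM of the 10 mural markers. In 4 PDOXs (P13, T16, P3 and T192) mural-like sums also held 9471 to 21012 CPM of myeloid markers, against 393 to 2311 CPM in the other 5 libraries. Fibroblast-like and choroid plexus-like cells reached 10 in only 3 untreated PDOXs each and in Nu-NB, and OPC-like cells (oligodendrocyte progenitors) in 6 untreated PDOXs and not in Nu-NB.

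Igfbp7 was most abundant in endothelial-like and mural-like cells, Igfbp5 and Igfbp6 in fibroblast-like cells, Igfbp2 in choroid plexus-like cells, Igfbp3 in OPC-like cells and in the endothelial-like and cycling-like cells of P13, and Igfbp4 in fibroblast-like and endothelial-like cells. To ask which neighbours in the order of classes differed beyond the spread between PDOXs, 24 neighbouring pairs of classes that shared at least 6 untreated PDOXs were compared on the log2(CPM + 10) scale with a two-sided exact paired permutation test. Of these, 3 had an exact permutation p under 0.05, and 0 remained after Benjamini-Hochberg adjustment over the 24, the lowest adjusted p being 0.25. The share of all genes passing the same test was not computed, so this count does not set the members apart from other genes. With 7 PDOXs the smallest p the test allows is 0.0156, and with 6 it is 0.031.

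**Figure D1:**
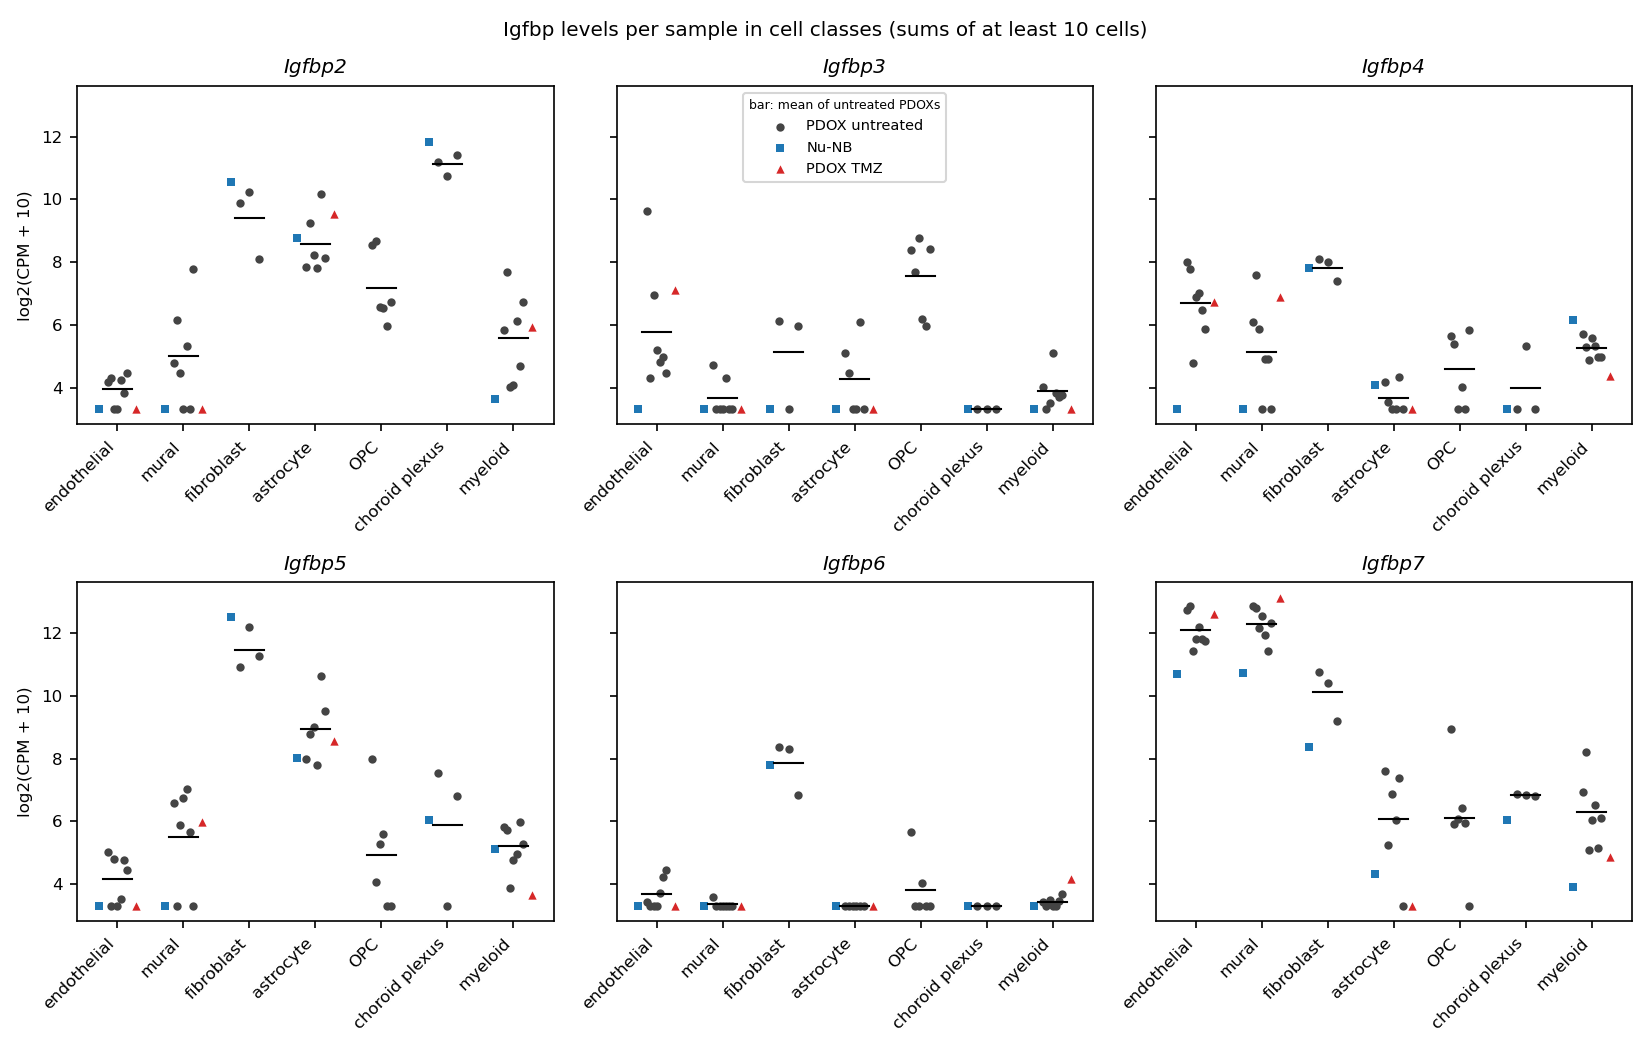
Level of each Igfbp member, as log2(CPM + 10), in 7 cell classes. Each point is 1 sample with at least 10 cells of the class (circles, untreated PDOXs; squares, Nu-NB; triangle, P3TMZ), and bars are means over the untreated PDOXs. Among the circles, those of Igfbp7 in endothelial-like and mural-like cells stand above those of every other class, and Igfbp6 points leave the bottom of the scale mainly in fibroblast-like cells.

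Igfbp7, the basement membrane member, stood in the vascular classes of every sample. In endothelial-like cells it was at 2730 CPM in P8, 3433 in T233, 3600 in T101, 3609 in T192, 4693 in T16, 6778 in P13 and 7535 in P3. In mural-like cells, the pericytes and smooth muscle cells of the vessel wall, it was at 2765 CPM in T192, 3953 in T16, 4559 in P8, 5077 in T233, 6024 in T101, 7096 in P3 and 7437 in P13. P3 and P13 were the highest 2 untreated PDOXs in both classes, and the ranges of the classes overlapped almost entirely. The mean mural-like level exceeded the endothelial-like level by 0.21 on the log2 scale (SD 0.472, 4 of 7 PDOXs, exact permutation p = 0.266), which was within the spread between PDOXs. Without the 4 PDOXs whose mural-like sums carried the most myeloid markers, the mural-like level lay between 4559 CPM (P8) and 6024 CPM (T101). The part of those myeloid counts in the mural-like values was not tested.

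Outside the vessel wall Igfbp7 was lower. Myeloid-like cells held a median of 59.0 CPM, from 24.2 in P8 to 285 in P3, and endothelial-like cells exceeded them by 5.80 on the log2 scale (SD 0.63, 7 of 7 PDOXs, exact permutation p = 0.0156, the smallest possible). Adjusted over the 24 pairs, the same comparison had an exact permutation p of 0.25. Astrocyte-like cells ranged from 0 (T233) to 184 CPM (P13) with a median of 82.2 CPM. The fibroblast-like level was 583 CPM in T16, 1353 in P8 and 1733 in P13. The myeloid-like, OPC-like and astrocyte-like classes, neighbours in this order, differed by -0.13 and 0.03 on the log2 scale, within their spread. When each cell was thinned to 500 UMIs, 61.9% to 90.7% of endothelial-like cells and 78.1% to 92.3% of mural-like cells had an Igfbp7 UMI, against 0.714% to 6.26% of myeloid-like cells. Unthinned, the shares were 64.3% to 91.4%, 87.3% to 98.3% and 3.23% to 20.7%, at median depths per PDOX of 477 to 1211, 448 to 2381 and 495 to 1251 UMIs per cell. The mural-like shares are those of the 5 PDOXs with at least 10 cells of 500 UMIs. In the other 2 the unthinned mural-like share was 71.4% in T233 (median 366.5 UMIs) and 76.0% in T101 (418 UMIs). Thinning left out 657 of the 2066 endothelial-like and 1203 of the 3787 myeloid-like cells.

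Igfbp3, the main carrier of IGFs in serum, separated 1 PDOX from the rest in endothelial-like cells. Its level there was 787 CPM in P13 (1072 UMIs in 513 cells), and 115 CPM in P8 (13 UMIs). In the other 5 untreated PDOXs it ran from 10 CPM in P3 (2 UMIs) to 27.2 CPM in T101 (4 UMIs), with T233 at 12, T16 at 18.3 and T192 at 21.7. P13 was also the deepest library, and after thinning to 500 UMIs 11.4% of its endothelial-like cells had an Igfbp3 UMI, while the median over the 7 PDOXs was 0.926%. In OPC-like cells the level was 52.0 CPM in T192 (1 UMI), 63.4 in T16 (10 UMIs) and 195 in P8 (144 UMIs). It was 324 in P13 (8 UMIs), 334 in T233 (7 UMIs) and 428 in T101 (15 UMIs). The intervals of P13 (140 to 639), T233 (134 to 687) and T101 (240 to 706) overlapped, so their order was not resolved. The OPC-like mean exceeded the endothelial-like mean by 1.55 on the log2 scale (SD 1.94, 5 of 6 PDOXs, exact permutation p = 0.125), which did not pass the test. Cycling-like cells, a class named by proliferation markers that can hold several cell types, held Igfbp3 at 534 CPM in P13 (41 UMIs in 27 cells) and 298 CPM in T101 (6 UMIs), and at 0 to 44.8 CPM in P3, T16 and T192. Mural-like cells held 16 Igfbp3 UMIs over all 7 PDOXs, 15 of them in P13.

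Igfbp4, a secreted inhibitor of IGF action that the protease Pappa cuts, was found mainly in fibroblast-like and endothelial-like cells, and lower in myeloid-like and mural-like cells. Endothelial-like cells held 17.7 CPM in P8 (2 UMIs), 48.0 in T233 (4 UMIs), 78.2 in T192, 109 in T101, 121 in T16, 210 in P3 and 246 in P13. As for Igfbp7, P3 and P13 were the highest 2 untreated PDOXs. Myeloid-like cells stayed between 19.4 CPM (P8) and 43.0 CPM (P13). Mural-like cells held 58.3 CPM in P13 (53 UMIs), 49.0 in P8 (4 UMIs), 184 in P3 (3 UMIs), 19.97 in T16 (2 UMIs), 20.2 in T192 (1 UMI) and 0 in T101 and T233, and did not differ from myeloid-like cells beyond the spread (0.10 on the log2 scale, SD 1.55, exact permutation p = 0.844). The endothelial-like level exceeded the myeloid-like level by 1.44 on the log2 scale (SD 0.868, 6 of 7 PDOXs, exact permutation p = 0.031, adjusted 0.25), and the exact permutation p was 0.0625 when any 1 PDOX other than P8 was left out. With T192 and T233, which share a patient, as 1 mean, it was 1.48 with an exact permutation p of 0.0625. Fibroblast-like cells ranged from 159 CPM (T16, 3 UMIs) to 262 CPM (P13, 13 UMIs), and astrocyte-like cells held 9 UMIs over 2075 cells.

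**Figure D2:**
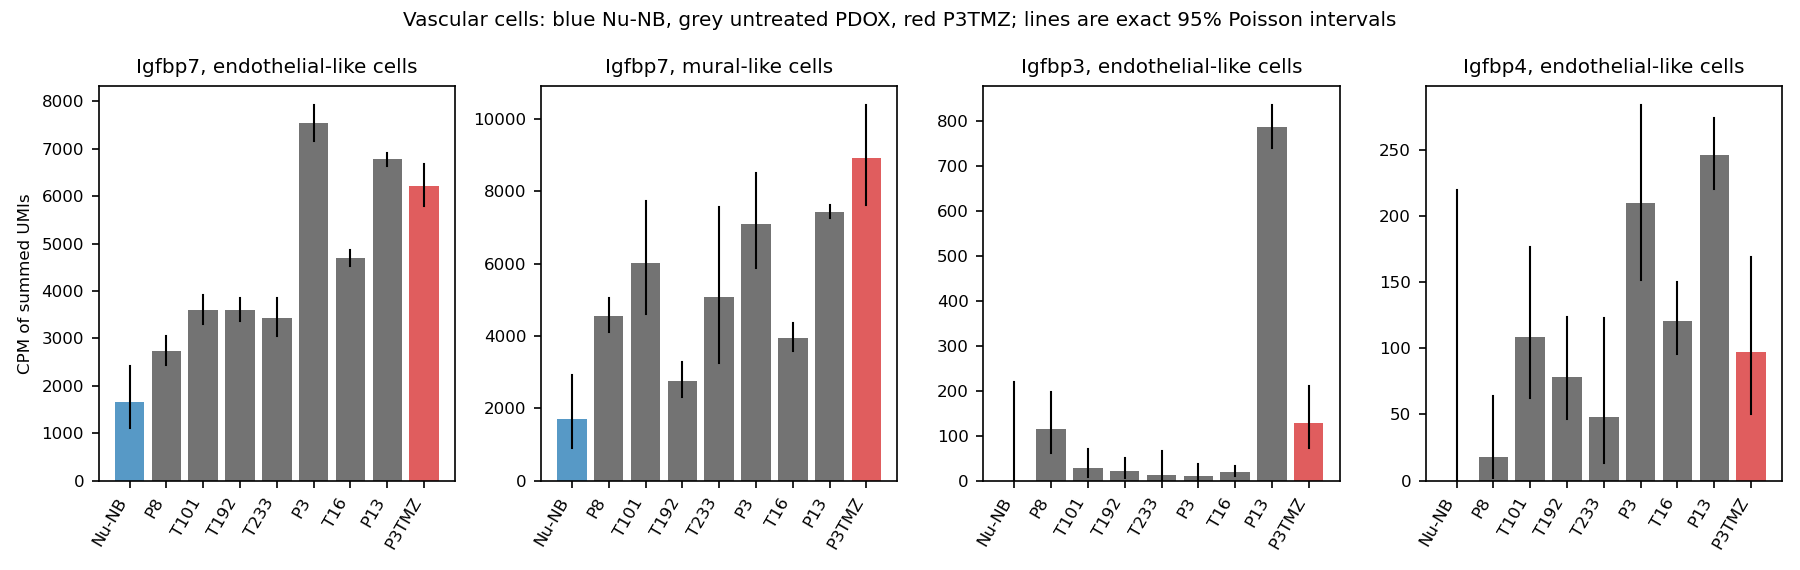
CPM of Igfbp7 in endothelial-like and mural-like cells and of Igfbp3 and Igfbp4 in endothelial-like cells, 1 bar per sample from 0 (blue, Nu-NB; grey, untreated PDOXs; red, P3TMZ), with exact 95% Poisson intervals. Igfbp3 stands at 787 CPM in P13 and at 10 to 129 CPM in the other PDOXs, and Nu-NB has no bar for Igfbp3 or Igfbp4 because it held 0 UMIs of either.

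Igfbp2, which binds IGFs in cerebrospinal fluid and brain tissue, was a gene of choroid plexus-like, fibroblast-like and astrocyte-like cells. Choroid plexus-like cells, the epithelium that makes cerebrospinal fluid, held 1711 CPM in P8, 2353 in P13 and 2731 in T233. Fibroblast-like cells held 265 CPM in T16 (5 UMIs), 927 in P13 and 1210 in P8. Astrocyte-like cells held 216 CPM in T16, 221 in P13, 270 in T233, 288 in T101, 603 in P8 and 1154 in T192. The T192 value was more than any other PDOX's in astrocyte-like cells, and T233 from the same patient was among the lower 3. Astrocyte-like cells exceeded OPC-like cells (median 90.5 CPM) by 1.41 on the log2 scale (SD 1.62, 5 of 6 PDOXs, exact permutation p = 0.0938), which did not pass the test. After thinning to 500 UMIs, 3.12% to 21.4% of astrocyte-like cells and 0 to 0.926% of endothelial-like cells had an Igfbp2 UMI. The unthinned shares were 8.89% to 28.7% and 0 to 1.95%, at median depths of 435 to 912 and 477 to 1211 UMIs per cell.

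Igfbp5, a matrix-bound member and the neighbour of Igfbp2 on chromosome 1, was a fibroblast-like and astrocyte-like gene. Fibroblast-like cells held 1914 CPM in P13, 2489 in T16 and 4655 in P8. Astrocyte-like cells held 212 CPM in T16, 246 in P13, 432 in P8, 504 in T101, 728 in T233 and 1574 in T192. As for Igfbp2, T192 had the highest and T16 the lowest astrocyte-like level. Astrocyte-like cells exceeded mural-like cells (median 49.0 CPM) by 3.09 on the log2 scale (SD 2.11, 6 of 6 PDOXs, exact permutation p = 0.031, the smallest possible with 6, adjusted 0.25). Myeloid-like cells ranged from 4.85 CPM (P8) to 53.2 CPM (T192), and in endothelial-like cells at most 22.8 CPM (P13) was found. In choroid plexus-like cells, where Igfbp2 was at its highest, Igfbp5 was at 178 CPM in P13 (5 UMIs), 101.1 CPM in T233 (1 UMI) and 0 in P8.

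Igfbp6, which binds IGF2 in preference to IGF1, was found mainly in fibroblast-like cells. It was at 106 CPM in T16 (2 UMIs), 308 in P8 (15 UMIs) and 322 in P13 (16 UMIs) in fibroblast-like cells. T16, the lowest of the 3 PDOXs in this class for Igfbp2, Igfbp4, Igfbp6 and Igfbp7, also held 10116 CPM of myeloid markers there, against 779 in P8 and 1713 in P13, and their part in these values was not tested. In the 2075 astrocyte-like and 72 choroid plexus-like cells of untreated PDOXs 0 UMIs were counted. Mural-like cells held 2 UMIs, OPC-like cells 2, endothelial-like cells 6 and myeloid-like cells 9 over all untreated PDOXs.

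The genes whose levels were most like each member were looked up over 41 sums of class and untreated PDOX, among 10365 genes, as Pearson's r of log2(CPM + 10). The 41 sums share 7 libraries, so these values are descriptions. Igfbp7 was most like Col4a2 (r = 0.93), a chain of basement membrane collagen, Rbpms (r = 0.90) and Tm4sf1 (r = 0.90). Igfbp6 was most like Snhg11 (r = 0.93) and Lum (r = 0.89), a collagen-binding proteoglycan that was also among the fibroblast markers, followed by Enpp1 (r = 0.78). Igfbp2 was most like Sulf1 (r = 0.81), an extracellular sulfatase, Sfrp1 (r = 0.81), a secreted Wnt antagonist, and Pdpn (r = 0.76). For Igfbp5 they were Prelp (r = 0.80), Sdc4 (r = 0.78) and Slc7a11 (r = 0.78), the cystine transporter. Igfbp3 was most like Cdh13 (r = 0.74), Meox1 (r = 0.74) and Mcf2l (r = 0.73), and Igfbp4 was most like Foxp1 (r = 0.76), Hpcal1 (r = 0.76) and Nid2 (r = 0.75), another basement membrane gene.

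Endothelial-like cells were then split by subset markers, to describe how the members vary inside the class. Igfbp3 was higher in cells with a UMI of an arterial marker (Bmx, Gkn3, Sema3g, Gja5 or Hey1, of which 4 were listed in every library) than in the other endothelial-like cells of the same PDOX. The pairs of CPM with and without an arterial marker were 405 and 62.6 in P8, 59.5 and 17.6 in T101, 61.3 and 6.06 in T192, and 32.04 and 0 in T233. They were 53.2 and 0 in P3, 26.0 and 16.7 in T16, and 1461 and 467 in P13. All 7 PDOXs had the higher value on the arterial side, with a mean difference of 1.83 on the log2 scale (SD 0.771, exact permutation p = 0.0156, the smallest possible, 0.281 adjusted over 18 tests). Only P13 (641 and 431 UMIs) and P8 (7 and 6 UMIs) had more than 4 Igfbp3 UMIs on the arterial side.

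Igfbp7 was higher in cells with a UMI of a tip cell marker (Apln, Esm1, Angpt2, Pgf or Plvap, of which 4 were listed in every library), the genes of sprouting endothelium. The pairs of CPM with and without a tip marker were 4703 and 2239 in P8, 6644 and 3310 in T101, and 4244 and 3508 in T192. They were 5680 and 3893 in T16, 7681 and 5574 in P13, and 9497 and 6463 in P3, the highest on both sides. The difference was 0.65 on the log2 scale (SD 0.315, 6 of 6 PDOXs, exact permutation p = 0.031, 0.281 adjusted). Igfbp4 was higher in tip marker cells of 5 of 6 PDOXs, by 0.73 (SD 0.75, exact permutation p = 0.0938), which did not pass the test. Over 3 subsets and 6 members, 2 of 18 tests had an exact permutation p under 0.05 and 0 after adjustment. The share of all genes passing was not computed here either. Cells with a marker UMI were also deeper, with a median of 3456 against 956 UMIs for tip markers in P13. In cells thinned to 500 UMIs the Igfbp3 difference was 0.92 (3 of 5 PDOXs, exact permutation p = 0.375, where 5 allow at least 0.0625) and the Igfbp7 difference 0.69 (4 of 4 PDOXs, exact permutation p = 0.125, the smallest possible with 4).

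**Figure D3:**
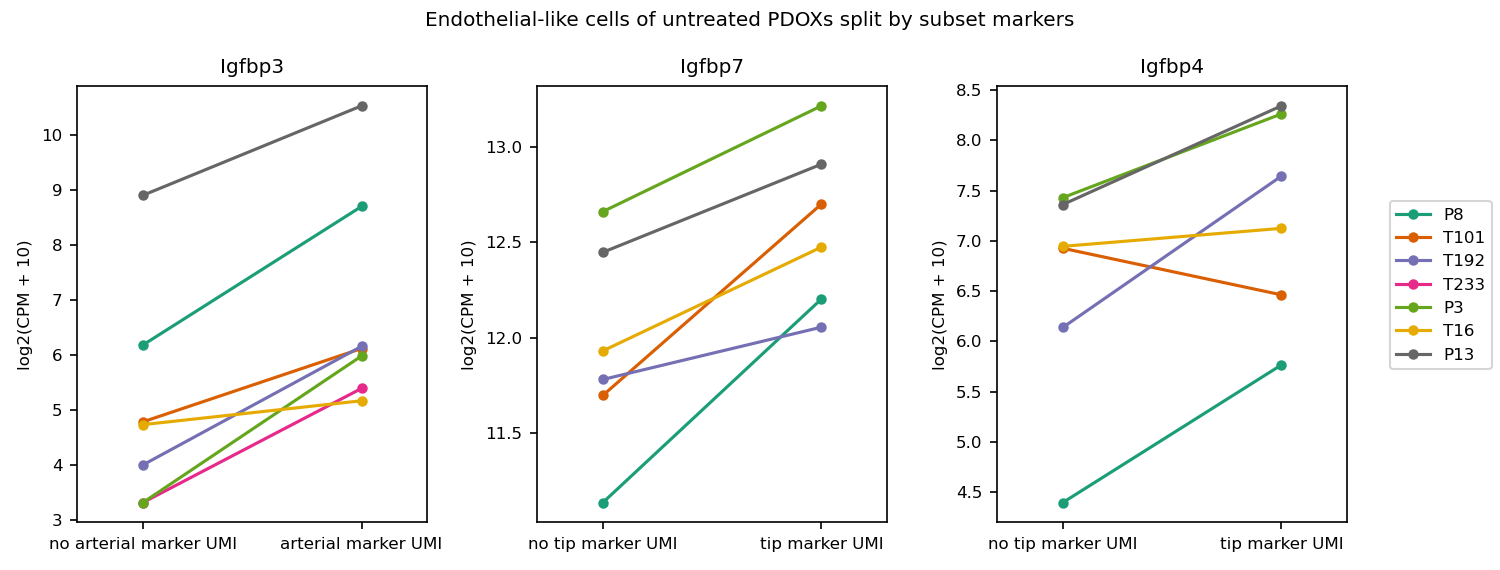
Level, as log2(CPM + 10), in endothelial-like cells without and with a UMI of an arterial marker (Igfbp3) or a tip marker (Igfbp7 and Igfbp4), 1 line per untreated PDOX with at least 10 cells on both sides. All 7 Igfbp3 lines and all 6 Igfbp7 lines go up, and 5 of 6 Igfbp4 lines do.

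To ask how the members differ between tumour-bearing and normal brain, each class was compared between the untreated PDOXs and Nu-NB. Nu-NB was 1 brain, so that the spread between PDOXs stood in for the spread between brains. In Nu-NB, Igfbp7 was at 1666 CPM in endothelial-like cells (28 UMIs in 35 cells, interval 1107 to 2408) and at 1705 CPM in mural-like cells (13 UMIs in 15 cells, 908 to 2915). Both values were under all 7 untreated PDOXs, the PDOX medians being 2.17 and 2.98 times as high. The endothelial-like cells of Nu-NB also held the most endothelial markers, 25293 CPM against 12702 to 23804 in the untreated PDOXs. P13, T16 and P3 held the fewest of these markers and the most Igfbp7. Fibroblast markers there were at 0 CPM in Nu-NB and at 132 to 1331 CPM in the untreated PDOXs. The part of these differences in the endothelial-like values was not tested. In fibroblast-like cells Nu-NB held 320 CPM (3 UMIs), the median of 3 PDOXs being 4.23 times as high with a counting interval for Nu-NB of 1.45 to 20.5. These Nu-NB cells also held fewer fibroblast markers (21644 CPM against 28547 to 46324 in the PDOXs), mural markers (746 against 1230 to 1935) and endothelial markers (213 against 369 to 504), and more astrocyte markers (6077 against 2112 to 5018). Their part in the fibroblast-like values was not tested. Nu-NB was under 5 of 6 PDOXs in astrocyte-like cells (10.3 CPM, 6 UMIs), where it also had the fewest endothelial markers, 35.9 CPM against 46.8 (P8) to 298 CPM (P13). Their part in the astrocyte-like values was not tested. It was under 7 of 7 in myeloid-like cells (4.95 CPM, 2 UMIs), where the median ratio was 11.9 with an interval of 3.30 to 98.4. Against P8 alone, sorted as Nu-NB was, the ratio of P8 to Nu-NB was 1.64 (95% interval 1.11 to 2.51) in endothelial-like and 2.67 (1.54 to 5.07) in mural-like cells, an exact interval from the counts of 2 libraries. It was 4.90 (1.26 to 42.0) in myeloid-like and 2.70 (1.004 to 8.43) in astrocyte-like cells, smaller than the median ratios of 11.9 and 8.004 over all PDOXs of the class.

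Igfbp3 and Igfbp4 were at 0 of 16803 UMIs in the endothelial-like cells of Nu-NB. A limit of 3 counts in that sum is 178.5 CPM, above the Igfbp3 level of 6 and the Igfbp4 level of 5 of the 7 untreated PDOXs. The exact 95% interval reached 219.5 CPM, which is also above Igfbp4 in P3 (210 CPM). A difference from those PDOXs was not detectable at this depth. In P13 Igfbp3 stood at 4.41 times the limit of 3 counts in the Nu-NB sum, and also above the exact limit of 219.5 CPM. No fold is given for Igfbp4, whose levels in P3 and P13 (210 and 246 CPM) were close to these limits. Igfbp4 of myeloid-like cells went the other way: Nu-NB held 61.9 CPM (25 UMIs), above all 7 untreated PDOXs, whose median was 29.0 CPM, and P8 alone stood at 0.313 of Nu-NB (95% interval 0.176 to 0.560). Igfbp2 was at 3649 CPM in choroid plexus-like, 1493 CPM in fibroblast-like and 431 CPM in astrocyte-like cells of Nu-NB. The first 2 were above all 3 PDOXs of the class and the last lay inside the PDOX range. The fibroblast-like value rested on 14 UMIs (816 to 2504), and P8 stood at 0.811 of it (95% interval 0.447 to 1.57). The choroid plexus-like interval, 2816 to 4651, overlapped that of T233 (1800 to 3973), and P8 stood at 0.469 of Nu-NB there (0.343 to 0.646). Igfbp5 was at 5864 CPM in fibroblast-like cells of Nu-NB, again above all 3 PDOXs, and at 248 CPM in astrocyte-like cells, inside the range. P8 stood at 0.794 of the fibroblast-like Igfbp5 value (95% interval 0.589 to 1.09). For fibroblast-like cells these directions differed between the tools: edgeR gave log2 fold changes of -0.44 (Igfbp2) and -0.55 (Igfbp5) for PDOXs against Nu-NB, and DESeq2 gave 0.29 and 0.12.

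None of these differences passed the test across all genes. With edgeR's quasi-likelihood test at a false discovery rate of 0.01 and a log2 fold change of at least 1, 0 of 18 tests of members over 6 classes were called, and percent called over all genes was 0 in every class, the same as for the members. At an unadjusted p under 0.05 there were 6 of the 18 member tests and 3629 of 25042 tests of all genes, and DESeq2 called 0 members and 213 genes, 210 of them in myeloid-like cells. The 6 were Igfbp7 in endothelial-like, mural-like, fibroblast-like, astrocyte-like and myeloid-like cells and Igfbp3 in astrocyte-like cells. The fitted log2 fold change of Igfbp7 was 2.32 (SE 0.783, adjusted p = 0.301) in endothelial-like cells, where the median over all genes was 0.67, leaving 1.65 above that median. In mural-like cells it was 1.97 (SE 0.848, adjusted p = 0.456) with a median of 0.73 over all genes, leaving 1.24. In myeloid-like cells it was 4.40 (SE 1.78, adjusted p = 0.214) with a median of 0.14, and Igfbp4 there was at -0.88 (SE 0.457, adjusted p = 0.312). DESeq2 gave Igfbp7 lower adjusted p-values in 2 of these classes, 0.0168 in endothelial-like cells (log2 fold change 2.35) and 0.0292 in myeloid-like cells (4.44), short of the threshold of 0.01. Over the edgeR alternatives the adjusted p was 0.173 to 0.603 in endothelial-like and 0.122 to 0.241 in myeloid-like cells. In astrocyte-like cells, with an adjusted p of 0.360 by edgeR, it was 0.0326 without P8, 0.0406 without a filter on low counts and up to 0.501 in the other edgeR alternatives. Of 19 other genes of the IGF system 13 were listed in every library, and in 32 tests of them over the 6 classes 0 were called.

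Myeloid-like cells, the most numerous class, carried low levels of Igfbp7 and Igfbp2 beside markers of other classes. P3 had the highest Igfbp7 (285 CPM) and Igfbp2 (195 CPM), and also 19180 CPM of the 7 choroid plexus markers, of which Ttr alone made 17484 CPM. Nu-NB had the lowest of both, 4.95 and 2.48 CPM, with 186 CPM of choroid plexus markers. The 10 endothelial markers summed to 29.7 CPM in Nu-NB, with 5 of the 10 at 0, and to 187 (T101) to 739 CPM (T233) in the untreated PDOXs, with at most 1 at 0. Among the untreated PDOXs, T233 and P3 had the most choroid plexus markers and the most Igfbp2. Igfbp7 did not follow the order of the summed endothelial markers, being at 59.0 CPM in T233 with 739 CPM of markers, and at 112 CPM in P13 with 319 CPM. Nor did it follow the summed mural markers, which were highest in P3 (767 CPM) and lowest in Nu-NB (64.4 CPM) but at 385 CPM in T233 and 166 CPM in P13. Of the single mural markers Rgs5, picked after its values were seen, was at 360 CPM in P3, 116 in T16, 80.5 in P13, 65.9 in T101, 12.5 to 31.4 in T233, T192 and P8, and 7.43 in Nu-NB. In P3TMZ it was at 43.5 CPM, above T233, T192 and P8, with Igfbp7 at 19.0 CPM, below all 3. In myeloid-like cells with no UMI of the 20 endothelial and mural markers, Igfbp7 was at 172 CPM in P3 (16 UMIs), 79.5 in P13, 18.7 to 31.6 in the other 5 untreated PDOXs and 5.33 in Nu-NB. In those with no UMI of choroid plexus, astrocyte, fibroblast or OPC markers, Igfbp2 was at 0 in the 79 such cells of 271 in P3 (interval up to 62.0 CPM, against 195 CPM in the whole class) and in the 91 of 614 in P13 (up to 35.0 against 47.6 CPM). It was also at 0 in P8 and Nu-NB, where the intervals, up to 16.2 and 19.2 CPM, reach past the level of the whole class, and at 8.93 to 18.8 CPM (1 to 3 UMIs) in the other 4 untreated PDOXs. This split was chosen after the values were seen. Barcodes under the filter of 200 genes carried 1628 CPM of Igfbp7 in P3, 924 CPM in T101, 831 CPM in P3TMZ, 231 to 335 CPM in T233, T192, P8 and T16, and 102 CPM in Nu-NB (P13 had only 3 such barcodes). The part of RNA from other cells in the myeloid-like values was not tested beyond these values.

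**Figure D4:**
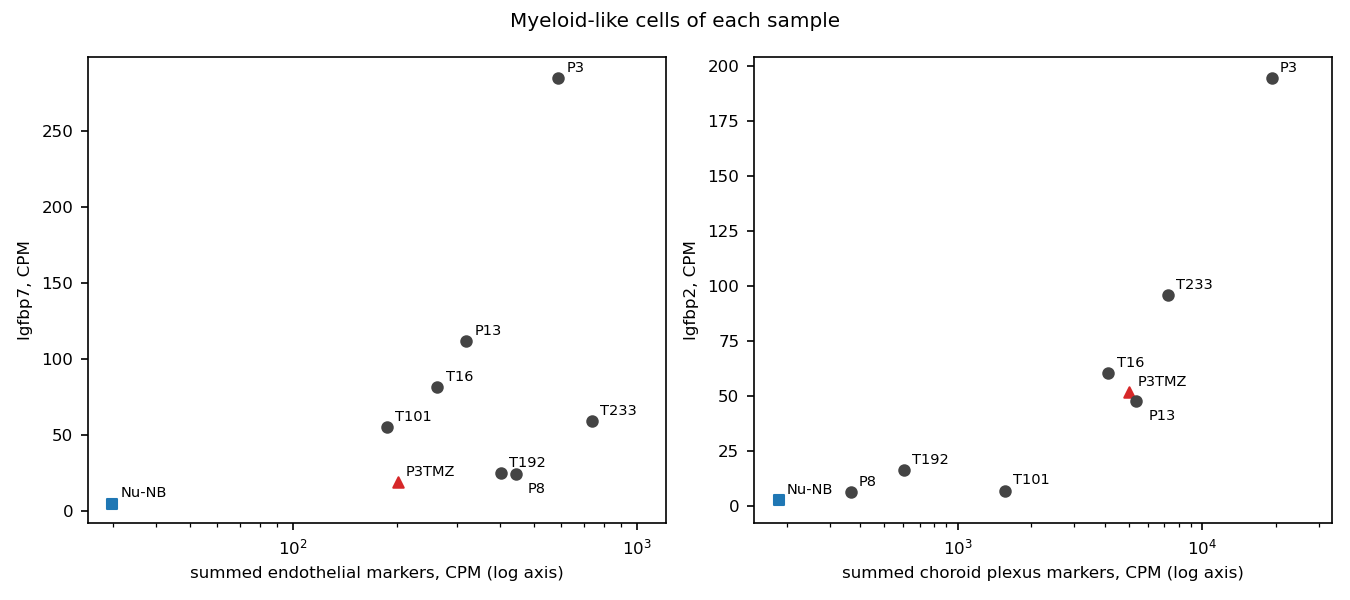
Igfbp7 against summed endothelial markers and Igfbp2 against summed choroid plexus markers in the myeloid-like cells of each sample, in CPM (horizontal axes logarithmic; square, Nu-NB; triangle, P3TMZ; circles, untreated PDOXs). P3 is highest for both members at 285 and 195 CPM, and Nu-NB is lowest at 4.95 and 2.48 CPM.

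P3TMZ was set beside P3, its untreated counterpart, as 1 sample each, so that there was no test and the intervals compare 2 libraries. The methods of the study give the drug's vehicle to control animals, the labels call P3 untreated, and whether the P3 animal received vehicle was not given in the sources used here. Igfbp7 of endothelial-like cells was at 7535 CPM in P3 (7159 to 7925) and at 6221 CPM in P3TMZ (5789 to 6676). Both lay in the untreated range, and their intervals were apart. In mural-like cells P3TMZ stood at 8920 CPM (7615 to 10385), above the highest untreated PDOX at 7437 CPM, and its interval overlapped that of P3 (5864 to 8511). Igfbp3 of endothelial-like cells was at 10 CPM in P3 (2 UMIs, 1.21 to 36.1) and at 129 CPM in P3TMZ (16 UMIs, 73.8 to 210), with intervals apart but inside the untreated range, since P13 stood at 787 CPM. Igfbp4 was at 210 CPM in P3 and 96.8 CPM in P3TMZ, with overlapping intervals.

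In myeloid-like cells P3TMZ stood outside the untreated range for 4 members. Igfbp7 was at 19.0 CPM (14 UMIs, 10.4 to 31.9) against 285 CPM in P3 (231 to 347). The lowest untreated PDOX was P8 at 24.2 CPM. After thinning to 500 UMIs, 0.791% of P3TMZ cells (0.0959 to 2.83) and 2.99% of P3 cells (0.819 to 7.47) had an Igfbp7 UMI. These intervals of shares overlapped. Thinning left out 86 of the 339 P3TMZ cells and 137 of the 271 P3 cells. Igfbp5 was at 2.72 CPM (2 UMIs) against 43.6 CPM in P3, and Igfbp4 at 10.9 CPM (8 UMIs) against 29.0 CPM. Igfbp6 was at 8.16 CPM (6 UMIs), above the highest untreated value of 2.77 CPM. Igfbp2 was at 51.7 CPM (38 UMIs, 36.6 to 70.9) against 195 CPM in P3 (151 to 247), with intervals apart but inside the untreated range. The 67 Igfbp2 UMIs of P3 came from 16 cells, with 29 in 1 cell. The 38 of P3TMZ came from 12 cells, with 11 in 1 cell. The intervals do not cover such an uneven spread over cells. Of all 18 values in 3 classes, 5 lay outside the untreated range. The CPM intervals of P3 and P3TMZ were apart for 2 of these 5, Igfbp7 and Igfbp5 of myeloid-like cells. The share of all genes outside the range was not computed, so this count does not set the members apart from other genes. The 5 depended on the processing: without doublet removal 2 remained (Igfbp5 and Igfbp6 of myeloid-like cells), at 500 genes per cell 2 (Igfbp6 and Igfbp7 of myeloid-like cells), and with per-cell means only Igfbp6 of myeloid-like cells. Counting mixed clusters with the class that leads them gave 6 of 24, without Igfbp7 of myeloid-like cells, and resolution 2 gave 4, without Igfbp7 of mural-like cells. Several marker lists of other classes were also lower in the same P3TMZ cells: endothelial markers summed to 201 CPM against 590 in P3, mural markers to 166 against 767, choroid plexus markers to 5036 against 19180, and fibroblast markers, the list that differed most, to 15.0 against 473. Astrocyte markers went the other way, 188 CPM against 105, and OPC markers stood at 99.3 against 92.9. The part of these counts in the P3TMZ values was not tested. In myeloid-like cells with no endothelial or mural marker UMI, Igfbp7 was at 25.8 CPM in P3TMZ (6 UMIs) and 172 CPM in P3 (16 UMIs).

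**Figure D5:**
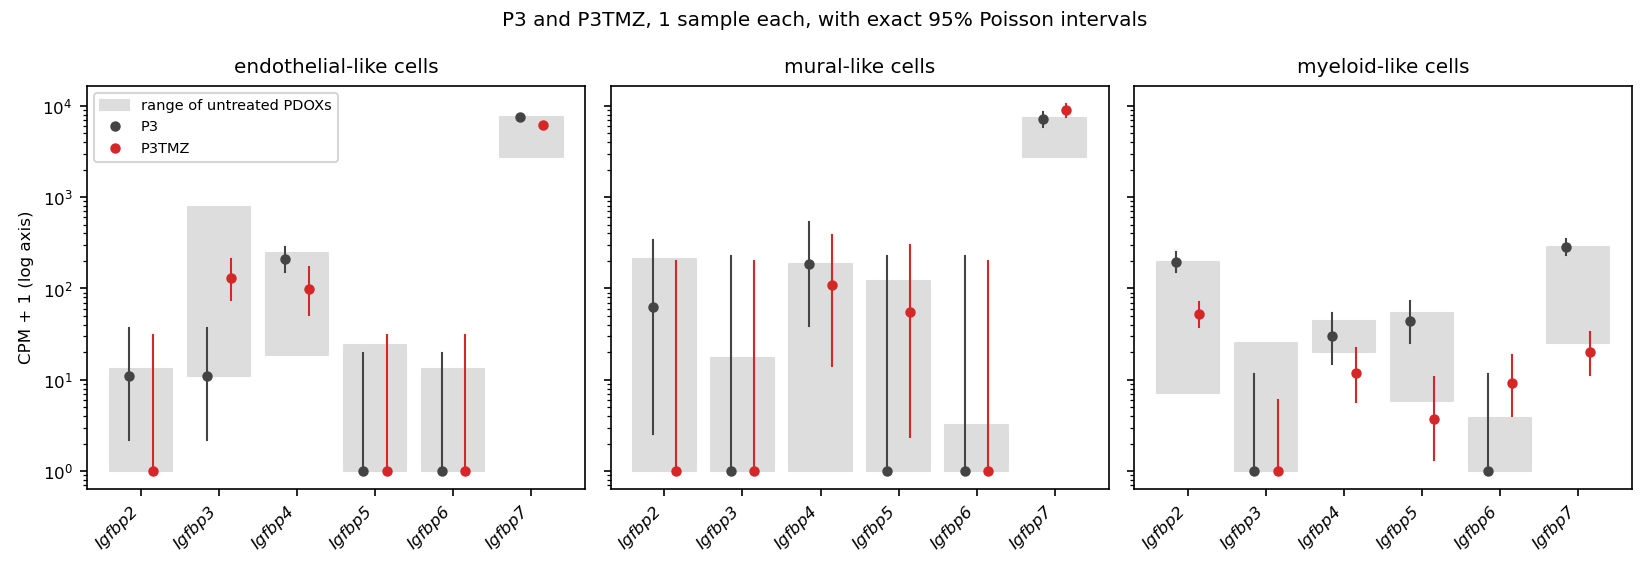
CPM + 1 on a log axis of the 6 members in P3 (dark) and P3TMZ (red), 1 sample each, with exact 95% Poisson intervals, over the range of the 7 untreated PDOXs (grey). In myeloid-like cells the P3TMZ points of Igfbp4, Igfbp5 and Igfbp7 lie under the grey range and that of Igfbp6 above it.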

How the data were processed

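Drop-seq libraries of 9 samples were deposited as tables of UMI counts per gene and cell barcode, raw and not normalized; per the labels the authors demultiplexed with bcl2fastq 2.0, aligned with STAR (its version is not given in the sources used here) and used GRCm38 (mm10). Columns of no sample: 0. From these counts, barcodes under 200 detected genes or above 30% of UMIs from mitochondrial genes were dropped, the 5% with the highest doublet score (scrublet) per library were left out, and cells were clustered with scanpy 1.11.5 (2000 variable genes, 30 components, 20 neighbours, Leiden resolution 1, Igfbp and IGF system genes left out), with mixed or unnamed clusters of at least 60 cells split once more. A cluster took a class name where at least 3, and at least 50%, of the class's markers stood 3-fold above the lower quartile of the clusters and at 10% or more of the highest cluster, 30% of its cells held 2 markers, and a marker was among its leading genes or 80% of the markers were raised. It was mixed where another class met the marker conditions with a median of 20% of its own highest cluster or led its top genes. This naming rule was revised 6 times with cluster sizes in view, and the levels of the members had been seen before the last 2 revisions, so an alternative counts mixed clusters with the class that leads them. The members and lists were chosen with earlier results of these data known.

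UMIs were summed per sample and class over symbols listed in every library. The contrast of untreated PDOXs to Nu-NB was fitted in edgeR 4.0.16 (TMM, filterByExpr, quasi-likelihood test, Benjamini-Hochberg over all genes tested in a class) in R 4.3.3, with DESeq2 1.42.0 as an alternative, at an adjusted p of 0.01 and a log2 fold change of 1. Classes and subsets were compared by exact sign-flip tests within PDOXs on log2(CPM + 10). The labels name each PDOX as a sample of its own, and p-values measure the spread between these. The text names the 6 members, IGF system genes that pass the threshold (0 did), and the 3 genes most like each member. The fits were tested on simulated data with the spread of the real sums, which was chosen after a first simulation recovered few of the changes put in. In the final form too, most of the smaller changes put in were not called. Alternatives were another tool, no filter on low counts, other cell filters, resolution 2, other pseudocounts, leaving out each PDOX and T192 and T233 as 1.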

Additional observations from a re-analysis of the deposited data

Results flagged for a closer look

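Groups of 4 to 7 untreated PDOXs (1 member in 1 class) were looked at where the highest sample held at least 10 UMIs. That minimum was chosen after the values were seen. In 3 of the 18 groups the highest PDOX stood far from the others by Dixon's test. The chance rate of that test, about 1 in 20, holds for normal values of unselected groups. These were CPM of unequal depth in groups that entered by their highest sample, so that rate does not apply here. Igfbp3 of endothelial-like cells was at 787.4 CPM in P13 with the next PDOX at 114.8 CPM, a gap of 0.865 of the whole range (n = 7). Igfbp7 of OPC-like cells was at 486.6 CPM in P13 (12 UMIs in 24 cells) with the next at 76.13 CPM (n = 6). The same cells held Rgs5 at 649 CPM (0 to 143 in the others), endothelial markers at 487 CPM (0 to 171) and mural markers at 1176 CPM (476 to 987), and the part of these counts in the Igfbp7 value was not tested. Igfbp7 of myeloid-like cells was at 284.6 CPM in P3 with the next at 112.0 CPM (n = 7).

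Clusters that took no class name were used in no comparison, and they also held members. A cluster with Apod and Fabp7 among its leading genes held Igfbp5 at 2956 CPM in Nu-NB (227 UMIs in 90 cells, 95% interval 2584 to 3366) and at 1552 CPM in P8 (85 UMIs in 67 cells, 1240 to 1919). A cluster of which 628 cells came from T101 held Igfbp3 at 937.2 CPM there (274 UMIs, 829 to 1055). Its leading genes Cnot2, Rab3ip, Cand1, Frs2, Yeats4 and Mdm2 all lie on mouse chromosome 10 within 2754895 bases (GRCm38, GENCODE vM21). These 6 were picked from its leading genes, among which were also Postn, Egfr and Cryab, whose positions were not looked up. Whether the cells of this cluster are mouse cells was not tested. Another unnamed cluster held Igfbp3 at 1164 CPM in T101 (15 UMIs in 47 cells) and 812 CPM in P13 (86 UMIs in 59 cells), and at 0 to 99.0 CPM in its other samples. Its T101 cells also held Cnot2 at 6128 CPM and Yeats4 at 3568 CPM, against 55.1 to 264 and 66.1 to 191.7 CPM in its other samples. Whether the cells of this cluster are mouse cells was not tested in any sample, so the same limit holds for the T101 and the P13 value. These clusters were described after their values were seen.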

How the results depend on the processing

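0 members were called against Nu-NB under any alternative run. All genes called, 0 by edgeR, were 213 by DESeq2 (which fits and filters other genes), 27 without a filter on low counts, and 0 to 70 leaving out 1 PDOX (70 without P8, 1 without T233). The log2 fold change of Igfbp2 in astrocyte-like cells, -0.01, was 0.0705 with T192 and T233 as 1 and -0.46 to 0.21 leaving out 1 PDOX, and by DESeq2 fibroblast-like Igfbp2 and Igfbp5 turned to 0.29 and 0.12. The 3 class pairs became 5 (of 18) at 500 genes per cell, 6 (of 12) at 25 cells per sum, 5 at resolution 2, 2 (of 12) with T192 and T233 as 1 mean, and 2 to 4 leaving out 1 PDOX. The 5 P3TMZ values outside the range became 2 at 500 genes per cell, 2 without doublet removal, 1 with per-cell means, 4 at resolution 2, 4 (of 12, mural-like cells left out) at 25 cells per sum and 6 (of 24) with mixed clusters. The 2 subset differences became 0 after thinning, which left 5 and 4 PDOXs and so could not pass, and 1 to 2 leaving out 1 PDOX. Without any 1 of its 6 PDOXs the Igfbp7 tip marker difference was 0.57 to 0.73, higher in 5 of 5 (exact permutation p = 0.0625, the smallest possible with 5), and without T192 another difference passed. The causes were not tested. Of the values of single members 264 kept direction and side of the threshold, 15 lost their call (8 with too few PDOXs left to pass), 4 moved (Igfbp7 of P3TMZ) and the 8 that changed sign are those of Igfbp2 and Igfbp5 above. Thinning, and all subset alternatives, and the mixed clusters were added after seeing the data. At 500 genes per cell mural-like cells were too few, and leaving out 1 PDOX left under 6 pairs for some classes. No paired analysis was possible for the contrast with Nu-NB, which was 1 brain with no counterpart among the PDOXs (classes and subsets were compared within PDOXs). The replicate numbers follow accession order. The vascular sums of Nu-NB were small, with 28 Igfbp7 UMIs in 35 endothelial-like cells.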

Other observations

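Neuronal-like cells were few, 50 in P13, 29 in Nu-NB and 12 in T16, and were left out of the comparisons. Igfbp5 in them was at 520 CPM in P13 (33 UMIs), 362 CPM in Nu-NB (12 UMIs) and 117 CPM in T16 (1 UMI). Igfbp7 was also at 520 CPM in P13 (33 UMIs), at 235 CPM in T16 (2 UMIs) and at 0 in Nu-NB. The exact Poisson interval of that 0 reached 111 CPM.

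A mixed cluster of 31 cells in P13, led by endothelial markers and other classes' genes together, held 51 Igfbp3 UMIs (547 CPM) and 209 Igfbp7 UMIs (2242 CPM). Counted with the endothelial-like cells it left the arterial marker difference of Igfbp3 at 1.81 on the log2 scale.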
